A study of Homo sapiens with 27 samples.

Results

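Naphthalene (NP), an aromatic hydrocarbon of fused benzene rings and the smallest of the compounds used, was given to HepG2 cells, a line from a human hepatocellular carcinoma that keeps many hepatocyte functions. The arrays described here are the 3 two-colour arrays labelled NP, of 27 in the series, on which Cy5 marked RNA of NP-treated cells and Cy3 marked RNA of cells that received DMSO, the solvent. They were chosen by their label alone. The series exposed the same line for 48 h to 1 of 9 polycyclic aromatic hydrocarbons with 3 arrays per compound, and the arrays of 3-methylcholanthrene (3MC), dibenzo[a,h]anthracene (DBA) and phenanthrene (PH), each also set against DMSO for 48 h, are used for comparison. Doses are not given in the labels, and differences between compounds may hold differences of dose. The labels do not say whether the 3 arrays are separate cultures or whether compounds share DMSO RNA, so the p-values measure only the spread between arrays. The dyes were not exchanged on any NP array, so a dye bias of a probe stays in its ratio. All results are for a single cancer line, and a change in a transcript per cell and a change in the share of cells that hold it cannot be told apart.

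As background, naphthalene is oxidised by cytochrome P450 enzymes to an epoxide, which epoxide hydrolase, glutathione transferases, dihydrodiol dehydrogenases of the AKR1C family, quinone reductases, glucuronosyltransferases and sulfotransferases process further. Its quinones can react with thiols of proteins and glutathione. Larger aromatic hydrocarbons bind the aryl hydrocarbon receptor (AHR), which switches on CYP1A1 and a small group of further genes. Electrophiles free the transcription factor NRF2 (gene NFE2L2) from KEAP1, and NRF2 then drives genes of glutathione, thioredoxin and NADPH supply. Metallothioneins are small cysteine-rich proteins that bind zinc and copper, and MTF1 drives them through metal response elements.

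The median spot signal on the NP arrays was 125 to 142 intensity units in Cy5 (NP) and 247 to 301 in Cy3 (DMSO). No spot was saturated, and between 81.1% and 84.5% of probe spots stood above background in Cy5 and between 94.8% and 96.3% in Cy3. Between 11284 and 13398 of 41675 probe spots per NP array carried the scanner's not-found mark and were kept. The NP, 3MC and DBA files share a layout of 61 columns and dim signals, whereas PH files have 49 columns, so NP and PH arrays differ in layout as well as in compound. The DBA arrays were dimmer than the NP arrays, with median signals of 70 to 84 units in Cy5 and 68 to 86 in Cy3. Log2 ratios of the 3 NP arrays correlated at 0.979 to 0.982 across 14548 genes above background in both channels, where genes are not independent replicates. Of 10 hepatocyte markers 9 had mean normalised intensities of 1238 to 23728 units with NP, and HNF4A read 193 with NP and 227 with DMSO. The NP ratio passed as lower for AFP, APOB, TTR, FGB and FOXA2 and as higher for SERPINA1, and ALB, APOA1, TF and HNF4A did not pass. Markers of leucocytes, endothelium, fibroblasts, squamous epithelium and lung lay between 78.5 and 643.4 units with NP. The insulin probe, a pancreas marker, read 1584.7 units with NP and 1907.9 with DMSO.

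NP changed many transcripts by modest amounts. Of 17286 genes tested, 3352 (19.4%) passed an adjusted p under 0.05 and a change of at least 1.5-fold, 1163 (6.73%) of them higher with NP and 2189 (12.7%) lower. At 2-fold or more there were 232 higher and 860 lower genes. All 3352 had the same sign on the 3 arrays, and the median log2 ratio of all genes tested was 0.02. When the genes above background in both channels were split by the mean signal of both channels into 4 bins of 3637, 1.95% of the dimmest bin were higher and 5.66% lower, and of the brightest bin 10.4% were higher and 20.2% lower. Lower genes outnumbered higher ones in each bin. When arrays were centred on their median in place of loess, 613 genes passed as higher and 3017 as lower, so the split between directions depends on that choice.

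Different probes of a gene often gave different NP ratios, and this bears on every gene named below. Of the genes lower with NP, 883 had another probe above background in both channels on all 3 arrays, and in 203 of them (23.0%) another probe also passed as lower when each probe was tested alone. In 29 of the 883 another probe passed as higher. Of the genes higher with NP, 394 had another probe, which also passed as higher in 136 (34.5%) and passed as lower in 17. Over the 1205 other probes of lower genes the median was 0.06 of the log2 ratio of the probe used, and over the 513 other probes of higher genes it was 0.40. The genes were selected by the probe used, so its ratio is on average the more extreme, and the other probes are the part that the selection did not use. As a description across genes, the log2 ratios of 2 probes of a gene correlated at 0.32 with NP over 4863 genes. The correlation was 0.44 with 3MC (4707 genes), 0.52 with DBA (3578 genes) and 0.63 with PH (5214 genes). For each compound the probes were those above background on its own arrays, so the gene sets differ. Of these the 2 brightest on the NP arrays were taken. The probe used for a gene was the brightest over all arrays, so its other probes were dimmer over all arrays. An offset was added to every spot, which makes the ratios of dim probes smaller. The shares and medians given for the other probes therefore hold differences of brightness as well as of ratio. How much of the disagreement comes from brightness was not tested, nor was any other cause.

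**Figure D1:**
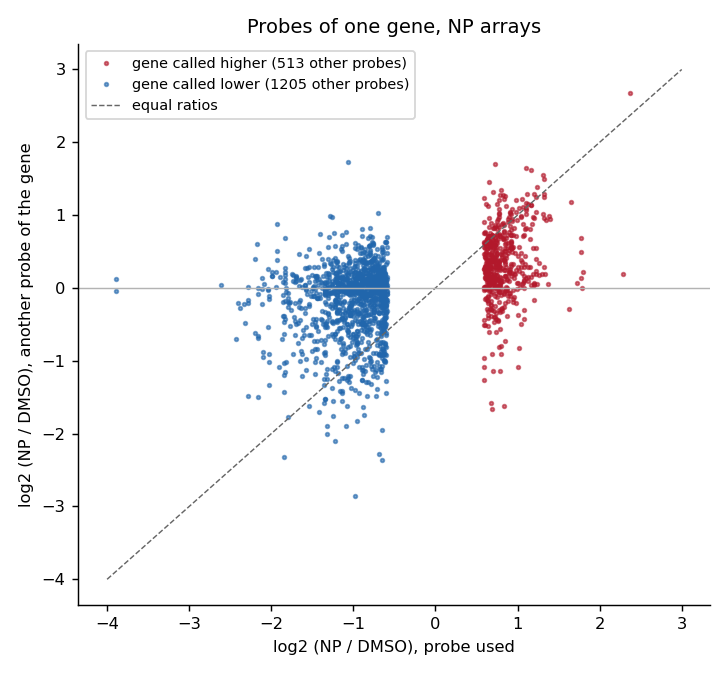
Log2 ratio of NP over DMSO for the probe used (x axis) and for each other probe of the same gene above background (y axis), for genes that passed as higher (red) or lower (blue). Points on the dashed line would have equal ratios in both probes; the 1205 other probes of lower genes scatter around 0 as well as below it.

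The highest NP ratios belonged to secreted factors, a metallothionein and stress and growth regulators. TIMP1, an inhibitor of matrix metalloproteinases, had log2 ratios of 2.87, 2.84 and 2.78 on NP arrays 1, 2 and 3. Its normalised intensities were 9995.4, 7669.7 and 9469.5 with NP, against 1367.5, 1068.4 and 1375.2 with DMSO, so the channels did not overlap. The mean was 2.83 ± 0.04 (SD, n = 3), or 7.12-fold, with a limma adjusted p of 3.3e-18. The same TIMP1 probe was at 1.88 with 3MC, 2.57 with DBA and 3.62 with PH. The NP ratio passed as higher than that of 3MC and as lower than that of PH, and its difference from DBA did not pass. GDF15, a stress-induced cytokine, had log2 ratios of 2.58, 2.28 and 2.32, and PHLDA2, an imprinted gene with a pleckstrin homology domain, had 2.47, 2.45 and 2.22. For both genes array 1 gave the highest of the 3 values. GDF15 was at 2.11 with 3MC and 2.69 with DBA, and its probe was saturated on all 3 PH arrays.

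MMP3, a matrix metalloproteinase, read 317.7, 315.1 and 315.0 units with NP, against 64.2, 64.1 and 65.0 with DMSO. Its log2 ratio was 2.29 ± 0.02 (SD, n = 3; adjusted p = 4.9e-15). The DMSO values lie close to the offset of 50 that was added to every spot, which makes the fold of such a dim probe smaller. HMGA1, a chromatin protein that binds AT-rich DNA, had log2 ratios of 2.25, 2.29 and 2.31 on the probe used and a mean of 0.20 on its other probe. That other probe was dim, with a mean log2 signal of both channels of 6.46 against 11.95 for the probe used. IL11, a cytokine of the interleukin-6 family, averaged 2.25 ± 0.09, ITPR3, an inositol trisphosphate receptor of the endoplasmic reticulum, 2.24 ± 0.08, and TGFB1, the growth factor that controls matrix production, 2.13 ± 0.01.

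IER3 (an early response gene, 2.04), ARG2 (mitochondrial arginase, 2.01), MISP (a spindle and actin protein, 1.91), LARP6 (which binds collagen messenger RNA, 1.87) and HSPA6 (an inducible heat shock protein, 1.84) were also among the 15 highest log2 ratios. Of these 15 genes only MT2A and HMGA1 had another probe above background on the NP arrays. The other probe of MT2A passed, while that of HMGA1, a dim probe, did not.

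**Figure D2:**
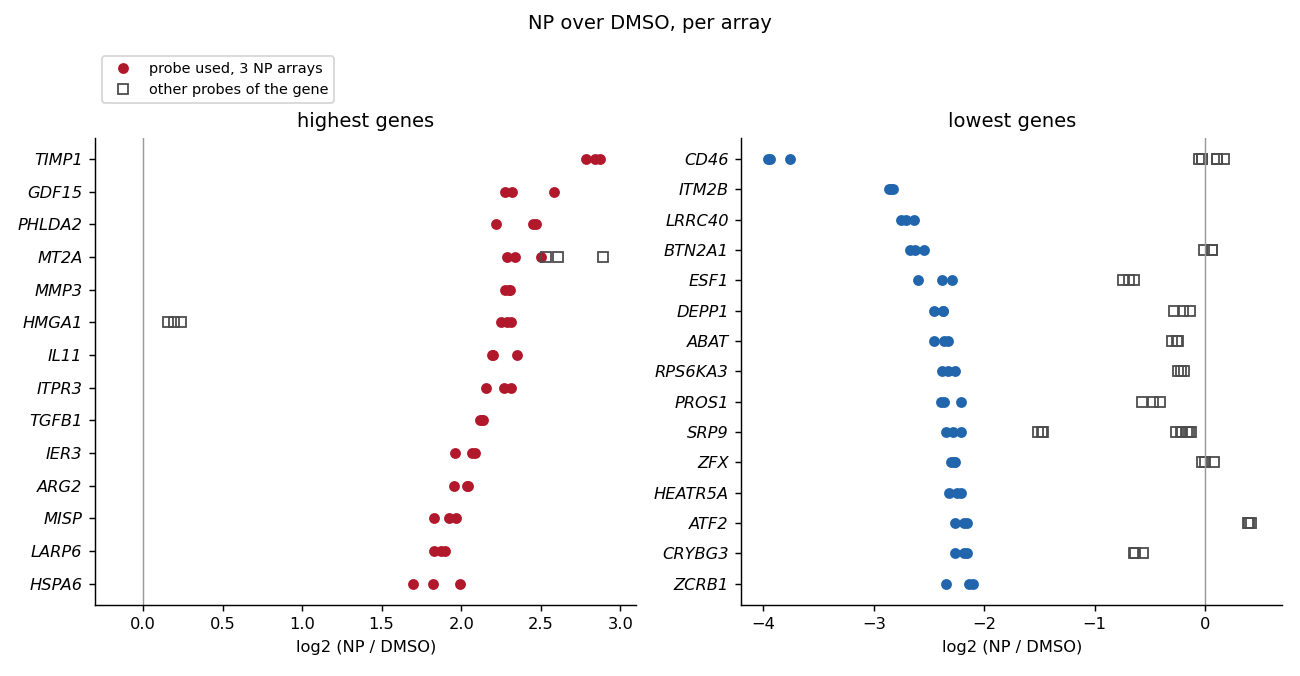
Log2 ratios of NP over DMSO on the 3 NP arrays (filled circles) for 14 of the 15 highest genes (left) and the 15 lowest (right), with the other probes of the same gene as open squares. The circles of a gene lie close together, while the squares of CD46, BTN2A1, ZFX and ATF2 lie near or above 0.

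The lowest ratio was that of CD46, a cell-surface regulator of complement. The probe used had log2 ratios of -3.76, -3.96 and -3.94, from 123.4, 156.4 and 121.9 units with NP against 1670.7, 2438.7 and 1872.0 with DMSO. Its mean was -3.89 ± 0.11 (SD, n = 3; adjusted p = 2.4e-20). The other CD46 probes averaged 0.13 and -0.04, so a fall of the CD46 transcript as a whole is not shown by these arrays. The same CD46 probe was at -3.38 with 3MC, -2.04 with DBA and -0.30 with PH.

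ITM2B, a membrane protein gene with 1 probe above background, had log2 ratios of -2.83, -2.85 and -2.86. LRRC40, also read by 1 probe, averaged -2.70 ± 0.06. BTN2A1, an immunoglobulin-family membrane protein, averaged -2.62 on the probe used and 0.04 on the other. ABAT, the mitochondrial enzyme that breaks down the transmitter GABA, averaged -2.38 and -0.27, and RPS6KA3, a kinase downstream of ERK, -2.33 and -0.22. The probes used for these genes were below 0 with 3MC and DBA too. ITM2B was at -1.25 and -1.01, LRRC40 at -1.59 and -1.17, and BTN2A1 at -1.89 and -1.04. ABAT was at -1.10 and -1.71, and RPS6KA3 at -1.60 and -1.90. With PH they stood at 0.05, -0.43, 0.38, -1.17 and -0.42, in the same order.

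For 3 of the 11 genes among the 15 lowest that had another probe, that other probe also passed as lower. ESF1, a nucleolar factor of ribosome assembly, averaged -2.42 and -0.70. CRYBG3 averaged -2.20 and -0.61. SRP9, a subunit of the signal recognition particle, averaged -2.28 on the probe used and -1.49, -0.21 and -0.17 on its others. The transcription factor gene ATF2 stood at -2.20 on the probe used and 0.40 on its other probe, and ZFX at -2.28 and 0.02. The other ZFX probe was dim, at a mean log2 signal of 6.42. DEPP1, a target of FOXO factors, was at -2.40 and -0.21, and PROS1, the anticoagulant protein S, at -2.32 and -0.48. HEATR5A (-2.26) and the splicing factor gene ZCRB1 (-2.20) had a single probe above background. With 3MC the probes used for ESF1, CRYBG3, SRP9 and ATF2 were at -1.64, -1.72, -1.42 and -1.59. ZFX, PROS1, HEATR5A and ZCRB1 were at -1.32, -1.82, -1.33 and -1.56 with 3MC, whereas DEPP1 was at 0.02. With DBA these genes lay between -1.72 (PROS1) and -0.23 (ESF1), and with PH between -1.21 (PROS1) and 0.54 (ESF1).

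Genes whose probes all passed in the same direction give a steadier list, which was drawn up after the values were seen. There were 105 such genes higher with NP and 124 lower. MT2A led the higher ones with log2 ratios of 2.38 and 2.68 on its probes. HKDC1, a hexokinase-like gene, had 1.65 and 1.18, FTL (ferritin light chain) 0.97, 1.32 and 1.25, and FTH1 (ferritin heavy chain) between 0.82 and 1.65 on 5 probes. ALDOA, the muscle-type aldolase of glycolysis, had 1.39 and 0.95. RAB33B, a small GTPase of the Golgi, led the lower ones, and the smaller of its log2 ratios in size was 1.78. C1GALT1, which builds the core of O-linked glycans, followed with 1.42 by the same measure, CPEB3, which binds messenger RNA tails, with 1.36, and TFPI, an inhibitor of the tissue factor pathway of coagulation, had 1.12.

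The gene lists below hold textbook members, and each count is to be read against 6.73% of all genes higher and 12.7% lower.

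**Figure D3:**
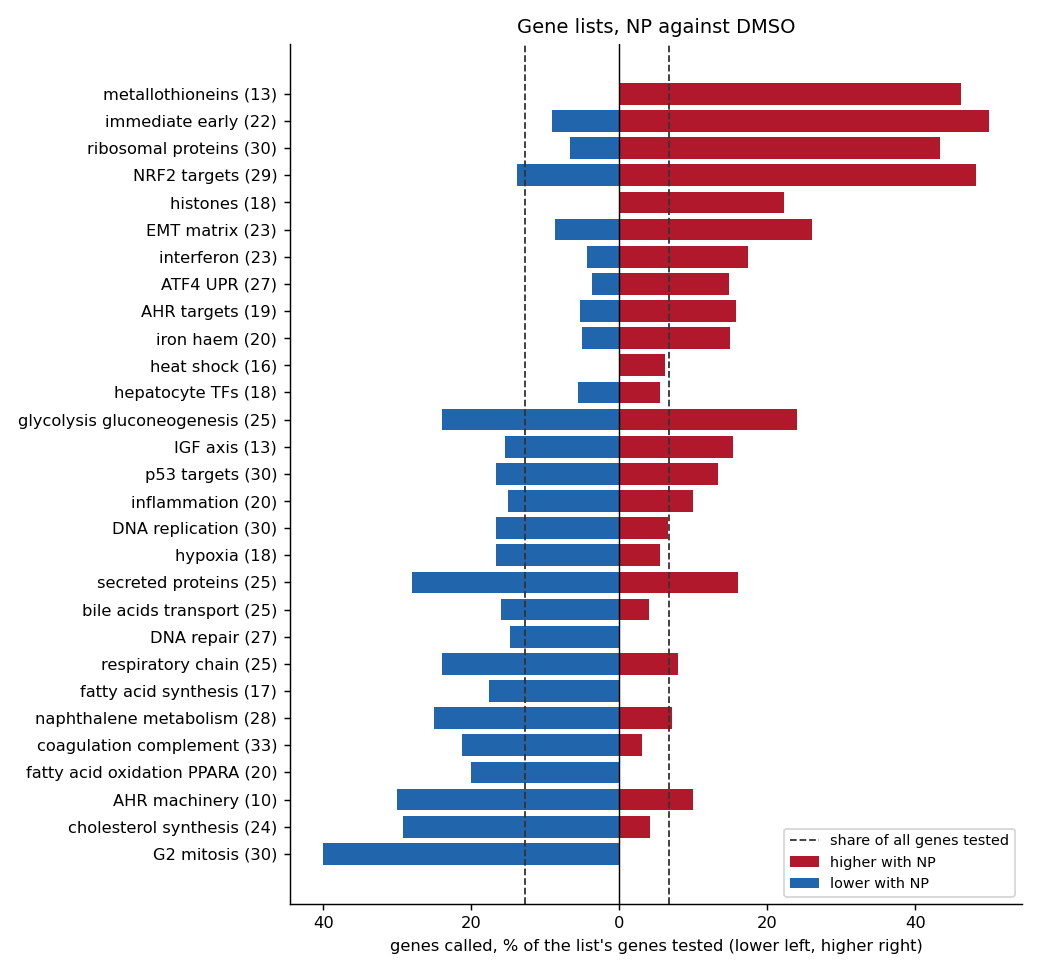
Share of each gene list's tested genes (number in brackets) that passed as higher with NP (red, right) or lower (blue, left), in percent. Dashed lines mark the 6.73% higher and 12.7% lower among all genes tested; metallothioneins, immediate early genes, NRF2 targets and ribosomal proteins reach the farthest to the right, and G2 and mitosis genes the farthest to the left.

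Of 28 genes of naphthalene metabolism tested, 2 passed as higher, 7 as lower and 19 did not pass. Of the 28 means 16 were above 0, and the median log2 ratio was 0.04 (all genes 0.02). EPHX1, the microsomal epoxide hydrolase that opens the naphthalene epoxide, had 0.74, 0.72 and 0.63 on NP arrays 1 to 3 (mean 0.70 ± 0.06, adjusted p = 1.3e-10). AKR1C1, a dihydrodiol dehydrogenase, averaged 0.90 ± 0.07. Of the other AKR1C1 probes, 2 passed at 1.04 and 1.03 and 1 was at -0.07, and genes of the AKR1C family are near-identical copies whose signals cannot be fully separated. AKR1C3, of the same family, averaged 0.45 ± 0.04, past the adjusted p but short of 1.5-fold.

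Among the phase I enzymes CYP3A4, the main drug-oxidising P450 of adult liver, had log2 ratios of -1.11, -0.92 and -1.06. Its signals were 134.8, 144.7 and 161.2 units with NP and 291.9, 274.3 and 336.2 with DMSO. CYP2A6, which oxidises nicotine and coumarin, averaged -0.65 ± 0.05 and stood above background with NP on 2 of 3 arrays. It no longer passed when spots marked not found were left out (-0.57). CYP2E1 averaged 0.16 ± 0.05, CYP2B6 0.18 ± 0.03 and CYP1A2 -0.14 ± 0.02, and none of these passed 1.5-fold. CYP2F1, the P450 known for naphthalene oxidation in lung, averaged 0.02 ± 0.03 (adjusted p = 0.78), and CYP1B1 0.02 ± 0.05 (adjusted p = 0.82).

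Several conjugating and reducing enzymes fell. GSTA1, the main alpha-class glutathione transferase of liver, had -1.35, -1.21 and -1.30 (mean -1.29 ± 0.07, adjusted p = 5.3e-13). GSTA1 was also at -1.24 with 3MC, -1.86 with DBA and -0.75 with PH, and none of these differed from NP by 1.5-fold. GSTT2 averaged -1.04 ± 0.14 on the probe used and -0.10 on its other probe, so its call rests on 1 probe. CBR1, a carbonyl reductase, averaged -1.06 ± 0.05, and NQO1, the quinone reductase, -0.62 ± 0.05. SULT2A1, a sulfotransferase of steroids, averaged -0.60 ± 0.09 and its other probe -0.81. SULT2A1 is close to the 1.5-fold threshold and lost its call without NP array 1 (-0.56). UGT2B7 averaged -0.56 ± 0.02, GSTP1 0.13 ± 0.14 and GSTM1 0.06 ± 0.05, all short of 1.5-fold. The GSTM1 probe also matches GSTM4.

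CYP1A1, the most responsive AHR target, had log2 ratios of 0.46, 0.53 and 0.44, from 177.5, 158.3 and 178.8 units with NP against 129.2, 109.9 and 132.2 with DMSO. NP was higher on each array, and the mean of 0.47 ± 0.05 (SD, n = 3; 1.39-fold) had an adjusted p of 0.0015 but did not reach 1.5-fold. It did reach 1.5-fold with plain background subtraction (0.77), with an offset of 16 (0.62) and as the mean of 2 arrays in the authors' deposited table (0.78). An added offset makes the ratios of dim probes such as this one smaller. The same probe averaged 2.90 ± 0.02 with 3MC, 3.45 ± 0.24 with DBA and 2.63 ± 0.28 with PH. The NP ratio was below each of them, with differences of -2.42 (adjusted p = 6.3e-10), -2.97 (2.4e-11) and -2.16 (7.5e-10).

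Of 19 genes listed as AHR targets and tested, 3 (15.8%, against 6.73% of all genes) passed as higher and 1 (5.26%, against 12.7%) as lower with NP. The median log2 ratio was 0.06. The higher ones were MT2A, GPAT3 (an acyltransferase of glycerolipid synthesis, 1.44 ± 0.07) and SLC7A5 (an amino acid transporter, 0.71 ± 0.05, with -0.40 on its other probe). MT2A is counted again among the metallothioneins below. AHRR, the receptor's repressor and a target of it, averaged -0.38 ± 0.05 with NP and 0.89 ± 0.17 with DBA, a difference of -1.27 (adjusted p = 5.5e-09). TIPARP averaged 0.06 ± 0.04 (adjusted p = 0.34) with NP. ALDH3A1 was not above background with NP on any array. Of the 10 genes of the receptor complex, AHR itself averaged -1.10 ± 0.13, ARNT2 (a relative of its partner ARNT) -1.004 ± 0.07 and the co-chaperone PTGES3 -0.73 ± 0.05. Of its 4 probes PTGES3 passed as lower on 2, and the others averaged 0.06 and 0.30.

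The metallothioneins held some of the largest rises. Of 13 genes of metallothioneins and their zinc partners, 6 (46.2%) passed as higher and none as lower, with a median log2 ratio of 0.56 (all genes 0.02). The median of the same list was 0.68 with 3MC, 0.75 with DBA and 0.49 with PH, where 5 of the 13 were saturated at least once. MT2A, the main human isoform, read 25612.1, 24182.8 and 23569.7 units with NP, against 4522.1, 4946.5 and 4666.7 with DMSO. Its log2 ratios were 2.50, 2.29 and 2.34 (mean 2.38 ± 0.11, adjusted p = 8.5e-15), and the NP and DMSO channels were far apart on every array. MT1A averaged 1.77 ± 0.11, MT1B 1.39 ± 0.16, MT1G 1.35 ± 0.14, MT1H 1.31 ± 0.14 and MT1X 1.23 ± 0.09. The probes of MT1A, MT1H and MT1X match more than 1 metallothionein gene, so these values are not fully independent of each other. MT1E averaged 0.56 ± 0.14 and MT1M -0.15 ± 0.10. MT1F averaged -0.07 ± 0.31, with array 1 at -0.43 and arrays 2 and 3 at 0.13 and 0.09. MTF1, the metal-sensing transcription factor, averaged 0.07 and SLC30A1, a zinc exporter, 0.22. MT2A was also at 1.67 with 3MC and 2.89 with DBA, and the NP ratio passed as higher than that of 3MC (difference 0.71, adjusted p = 1.3e-04). The probe was saturated on all 3 PH arrays, so its PH ratio was not set against NP.

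Because 6 metallothioneins rose, the 250 bases before the transcription start of 3 of them are shown, from RefSeq on GRCh38.p14. The core letters of the metal response element, TGCACNC or TGCGCNC on either strand, are in capitals.
MT2A, chr16:56608334-56608583, plus strand: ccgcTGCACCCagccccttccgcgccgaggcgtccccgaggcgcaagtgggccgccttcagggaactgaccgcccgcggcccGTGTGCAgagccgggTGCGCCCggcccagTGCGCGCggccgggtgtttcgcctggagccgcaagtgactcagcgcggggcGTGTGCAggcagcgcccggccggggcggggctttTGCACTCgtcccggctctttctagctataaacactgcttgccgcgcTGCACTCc
MT1H, chr16:56669564-56669813, plus strand: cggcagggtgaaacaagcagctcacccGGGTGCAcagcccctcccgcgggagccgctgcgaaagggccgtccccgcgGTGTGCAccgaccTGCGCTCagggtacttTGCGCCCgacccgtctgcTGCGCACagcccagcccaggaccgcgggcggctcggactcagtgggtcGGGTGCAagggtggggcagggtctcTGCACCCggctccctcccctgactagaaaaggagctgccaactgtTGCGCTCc
MT1X, chr16:56682220-56682469, plus strand: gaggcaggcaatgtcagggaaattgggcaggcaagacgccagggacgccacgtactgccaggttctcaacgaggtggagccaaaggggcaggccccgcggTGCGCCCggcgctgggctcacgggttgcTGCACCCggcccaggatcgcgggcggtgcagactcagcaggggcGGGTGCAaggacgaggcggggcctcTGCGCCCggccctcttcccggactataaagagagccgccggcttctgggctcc

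The window held 7 such cores in MT2A, 8 in MT1H and 4 in MT1X, none of them overlapping. The genes shown are not all that rose: MT1B, at a mean log2 ratio of 1.39, holds 3 cores. Among 35116 promoters of the same length, 24.8% held at least 1 core and 1.58% held 3 or more. A match of letters is a description and not evidence of binding, and MT4, which was not above background with NP, holds 3.

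Of 29 NRF2 targets tested, 14 (48.3%) passed as higher and 4 as lower, NFE2L2 itself among them, with a median log2 ratio of 0.45. The median of the same list was 0.09 with 3MC, 0.39 with DBA and 0.83 with PH, where 3 of the genes were saturated at least once. SRXN1, which repairs oxidised peroxiredoxins, had 1.86, 1.82 and 1.74 (mean 1.81 ± 0.06, adjusted p = 3.5e-16). SQSTM1, an autophagy receptor that also binds KEAP1, averaged 1.72 ± 0.02 on the probe used and 0.06 on its other probe. The other SQSTM1 probe was dim, at a mean log2 signal of 6.31. TXNRD1, the cytosolic thioredoxin reductase, had 1.59, 1.43 and 1.49. PGD averaged 0.76 and TKT 0.76, both enzymes of the pentose phosphate pathway that supplies NADPH. GCLC, the catalytic subunit of glutathione synthesis, averaged 0.77, and GCLM, its partner, averaged 0.33 and did not pass. ABCC3, an export pump for conjugates, averaged 1.08 ± 0.14. Of the 5 higher members with another probe, 4 had another probe that passed as higher.

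The lower members were NFE2L2 (-1.49 ± 0.03), CBR1, HMOX1 (haem oxygenase, -0.84 ± 0.04) and NQO1. The other NFE2L2 probe averaged -0.01, so the lower level of the NRF2 transcript rests on 1 probe. That other probe was dim, at a mean log2 signal of 6.56 against 12.28 for the probe used. The added offset makes ratios of such dim probes smaller. HMOX1 had -0.87, -0.87 and -0.80 on the 3 arrays and was at -0.32 with 3MC, 0.14 with DBA and -0.20 with PH. Ferritin chains FTL (1.32 ± 0.11) and FTH1 (1.10 ± 0.02), which store iron, were higher on all their probes, and of 20 iron and haem genes 3 passed as higher and 1 as lower. The higher ones numbered 8 with plain background subtraction and 7 with the authors' deposited values. BMP6, which signals iron stores to hepcidin, was the third at 0.59 ± 0.16 and lost its call without NP array 2 (0.50).

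**Figure D4:**
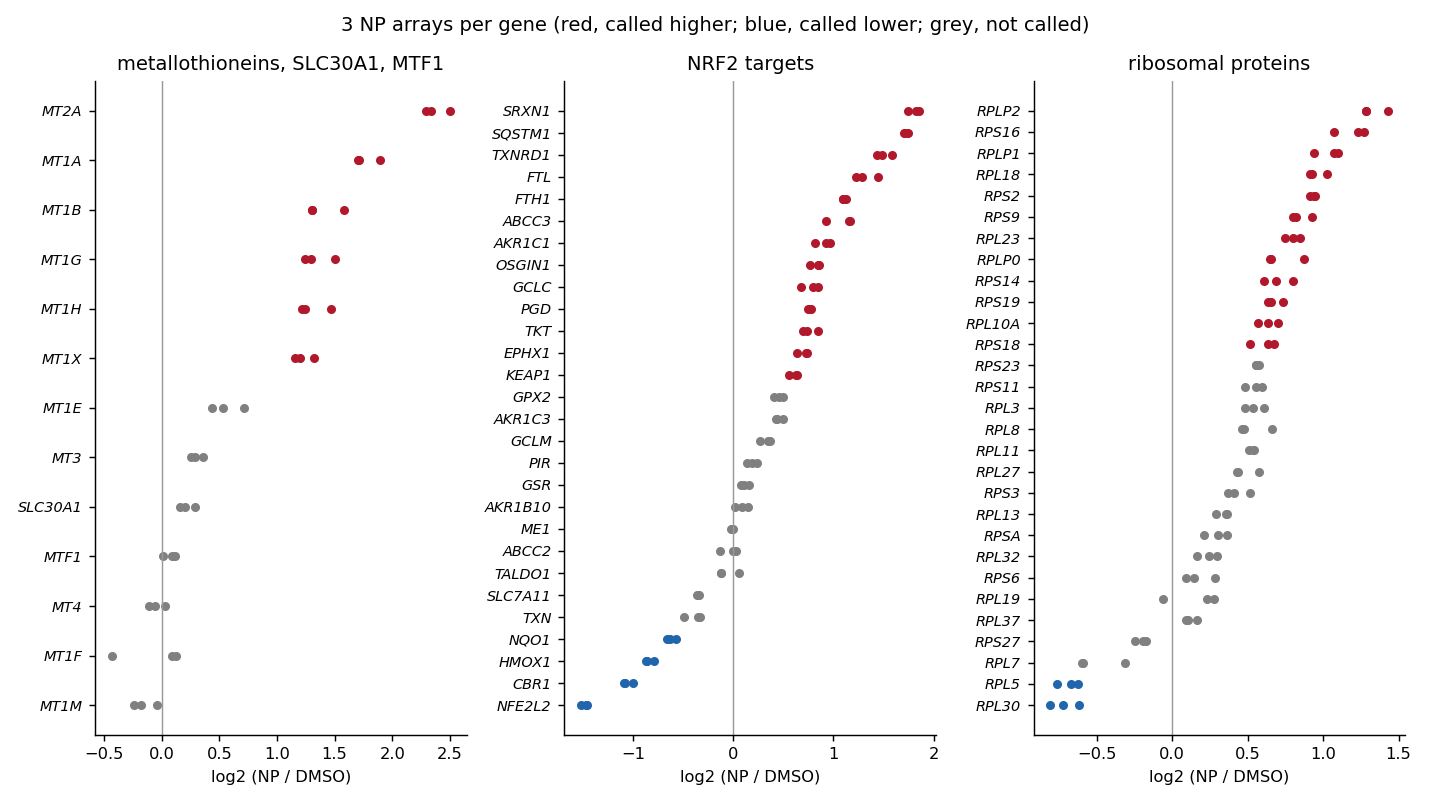
Log2 ratios of NP over DMSO on the 3 NP arrays for the metallothionein list, 28 of the NRF2 targets and 29 of the ribosomal proteins, sorted by mean. Red genes passed as higher, blue as lower and grey did not pass; MT2A is the highest of its panel and NFE2L2 the lowest of its own.

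Of 16 heat shock genes 1 passed, HSPA1A at 1.04 ± 0.12, with 0.97 and 0.48 on its other probes. HSPA6, which is not on that list, is the strictly inducible member of the family, and it read 323.2, 276.8 and 257.7 units with NP against 81.4, 85.3 and 72.9 with DMSO. Of 27 genes of the ATF4 and unfolded protein responses 4 passed as higher and 1 as lower. TRIB3, a pseudokinase, averaged 0.73 ± 0.08 and 1.70 on its other probe, DDIT3 (CHOP) 0.70 ± 0.06 and SLC3A2, an amino acid transporter subunit, 0.64 ± 0.09. PSAT1, a serine synthesis enzyme, averaged -0.88 ± 0.07, and the chaperone gene HSPA5 was at -0.05.

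Many immediate early and growth-response genes rose. Of 22 tested, 11 (50%) passed as higher and 2 as lower, with a median of 0.58. The median of the same list was 0.15 with 3MC, 0.13 with DBA and 0.57 with PH. DUSP5, a nuclear phosphatase of ERK, had 1.92, 1.92 and 1.63, and SPRY4, an inhibitor of receptor tyrosine kinase signalling, averaged 1.67 ± 0.06. KLF6, a zinc-finger factor, averaged 1.12 ± 0.05, with another probe at 1.15 and others at 0.15 and 0.29. FOSL1 (0.97), FOS (0.67), JUNB (0.63) and JUN (0.59), subunits of AP-1, passed as well. MYC (-0.69) and SPRY2 (-0.62) were lower.

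Of 23 matrix and epithelial-mesenchymal genes 6 passed as higher, among them TIMP2 (1.18 ± 0.05) and CCN1 (a matricellular protein, 1.23 ± 0.01), and 2 as lower, CDH1 and CCN2. Of 20 inflammatory genes 2 (10%) passed as higher and 3 (15%) as lower, shares near those of all genes. The higher ones were IL11 and LIF (0.80), cytokines that signal through gp130, and the lower ones CXCL8, CCL20 and TNFAIP3. CXCL8, a neutrophil chemokine, read 92.2, 82.6 and 91.4 units with NP, above background on 1 of 3 arrays, against 330.4, 279.5 and 320.2 with DMSO. CCL20, also a chemokine, averaged -1.17 ± 0.06, and TNFAIP3, an inhibitor of NF-kappaB, -1.07 ± 0.05. The interferon-induced membrane proteins IFITM1 (1.07 ± 0.02), IFITM2 (0.78 ± 0.02) and IFITM3 (0.74 ± 0.04) and ISG15 (0.74 ± 0.04) were higher, and they were 4 of 23 interferon genes. IFIT1 was lower at -0.63.

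Ribosomal protein genes were mostly above 0. Of 30 tested, 13 (43.3%) passed as higher and 2 as lower, with a median of 0.54, and 26 of the 30 means were above 0. RPLP2, an acidic stalk protein, had 1.43, 1.29 and 1.29, RPS16 averaged 1.19 ± 0.11 and RPLP1 1.04 ± 0.09. Of the 9 higher members with another probe, 7 had another that passed as higher. RPL5 (-0.69) and RPL30 (-0.71) were lower, and neither had another probe that passed. Many ribosomal protein genes have processed pseudogenes of near-identical sequence. Over the list 9 genes passed as higher with NP than with 3MC (3.21% of all genes did) and 7 than with DBA (4.58%), and none as lower than with either (5.13% and 6.9%). On PH arrays 16 of the 30 were saturated at least once. Of the other 14 genes 1 passed as higher with NP and 1 as lower, against 8.16% and 15.3% of all genes.

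A number of genes of G2 and mitosis fell. Of 30 tested, none passed as higher and 12 (40%) as lower, with a median of -0.47. NDC80, a kinetochore subunit, had -1.59, -1.45 and -1.59, HMMR, a spindle-associated protein, averaged -1.44 ± 0.03, CDK1, the mitotic kinase, -1.33 ± 0.04 and NUF2, the partner of NDC80, -1.18 ± 0.12. CDC20 was at 0.37, KIF20A at -0.13 and AURKB at -0.08, and none of these passed. The medians of the same list were -1.14 for 3MC, -1.09 for DBA and -1.83 for PH. The NP ratio passed as higher than that of 3MC in 22 of the 30, than that of DBA in 17 and than that of PH in 28, and as lower in none. Of all genes 3.21%, 4.58% and 8.16% were higher with NP than with 3MC, DBA and PH, and 5.13%, 6.9% and 15.3% were lower. CDK1 was at -2.02 ± 0.09 with 3MC, -2.08 ± 0.10 with DBA and -1.95 ± 0.03 with PH, with adjusted p of 3.5e-07, 7.3e-08 and 4.6e-07 for the differences from NP. Only 1 of the 12 lower genes had another probe, and it did not pass.

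Of 30 replication genes 2 passed as higher, CDT1 (0.68) and MCM7 (0.63), and 5 (16.7%) as lower, a share near the 12.7% of all genes. With median centring none passed as higher and 9 as lower. TYMS, which makes thymidylate, averaged -1.04 ± 0.02 and PCNA, the sliding clamp, -0.83 ± 0.06. MCM10 averaged -0.95 on the probe used and 0.13 on its other probe, which is the brighter one when all 24 arrays of the platform are fitted. PCNA was at 0.34 ± 0.07 with 3MC and 0.77 ± 0.09 with DBA, and the NP ratio was lower than both (adjusted p = 9.9e-11 and 1.0e-12). With PH it was at -1.05 ± 0.06, below 0 as with NP, and that difference did not reach 1.5-fold (0.21, adjusted p = 0.012). Of 27 repair genes none passed as higher and 4 as lower, or 8 with median centring. Among the 4 were CHEK1 (-0.83 ± 0.06), BRCA1 (-0.72 ± 0.01) and FANCI (-0.66 ± 0.04, with -0.15 on its other probe). Of 18 histone genes 4 passed as higher, led by H2BC4 (1.46 ± 0.02).

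Targets of p53 passed in both directions with NP. Of 30 tested, 4 were called as higher and 5 as lower, and the median was -0.02, against 0.68 with 3MC, 0.65 with DBA and 0.08 with PH. The NP median was 0.03 with plain background subtraction, 0.06 with the authors' values and -0.23 with median centring. GDF15, PLK3 (a stress kinase, 1.32 ± 0.05), BBC3 (the pro-apoptotic PUMA, 1.04 ± 0.08) and GADD45A (0.65) were higher. The other BBC3 probes averaged 0.38 and 0.29. FAS, a death receptor, had -1.16, -1.21 and -1.02, from 941.7, 757.8 and 874.3 units with NP against 2104.8, 1755.6 and 1778.5 with DMSO. CDKN1A averaged 0.31 and MDM2 -0.23, and neither passed. In 14 of the 30 genes the NP ratio passed as lower than that of 3MC, in 15 as lower than that of DBA and in 5 as lower than that of PH. Of all genes 5.13%, 6.9% and 15.3% were lower with NP than with 3MC, DBA and PH. The share of p53 targets lower than with PH was thus near that of all genes.

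Of 25 secreted liver proteins tested, 4 passed as higher and 7 as lower, with a median of -0.09. APOB, the structural protein of low-density lipoprotein, had -1.37, -1.48 and -1.40, APOH averaged -1.35 ± 0.06, AFP, the fetal counterpart of albumin, -1.31 ± 0.05 and TTR, the thyroxine carrier, -1.21 ± 0.02. ALB was at -0.04 and APOA1 at 0.11. SERPINA1 (1.03), APOA2 (0.92), AHSG (0.84) and APOE (0.71) were higher. TTR was not low with the comparison compounds, at 0.24 ± 0.04 with 3MC, 0.04 ± 0.08 with DBA and 0.29 ± 0.05 with PH, and the NP ratio was lower than each (adjusted p = 2.4e-13, 1.4e-12 and 2.9e-14). Of 33 coagulation and complement genes 1 was higher and 7 lower, among them PROS1, MBL2 (mannose-binding lectin, -1.27 ± 0.14 and -0.46 on its other probe), FGB (-1.20 ± 0.09) and CFI (complement factor I, -0.95 ± 0.01 and -0.76). Among 18 liver transcription factors FOXA3 passed as higher (0.65 ± 0.02) and FOXA2 as lower (-0.83 ± 0.04), and the other FOXA2 probes were at 0.11 and 0.10.

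Of 24 sterol synthesis genes 7 (29.2%, against 12.7% of all genes) passed as lower, 1, MVD, as higher (0.60) and 16 did not pass, with a median of -0.32. Of the 3 lower ones with another probe, 1 had another that passed as lower. SQLE, squalene epoxidase, had -1.53, -1.53 and -1.64 (mean -1.57 ± 0.06), and MSMO1, a sterol demethylation enzyme, averaged -1.19 ± 0.10. LSS, lanosterol synthase, averaged -1.59 on the probe used and 0.04, 0.04 and -0.27 on its others. GPAM, the mitochondrial acyltransferase that starts triglyceride synthesis, averaged -1.72 ± 0.01 on the probe used and -0.39 on the other. FADS2 (-0.90) and FADS1 (-0.72), fatty acid desaturases, had other probes at -0.05 and 0.54. ACADM, the medium-chain dehydrogenase of beta-oxidation, averaged -1.47 ± 0.08, FABP1 -0.72 ± 0.07 and VNN1 -0.86 ± 0.16, the last with 0.35 on its other probe.

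In glycolysis and glucose handling 6 of 25 genes passed as higher and 6 as lower. HK1 averaged 1.23 ± 0.11 while HK2, the other hexokinase of growing cells, averaged -1.13 ± 0.02, with -0.54 on its other probe. The glucose transporter SLC2A2 averaged -1.13 ± 0.09 and -0.02 on its other probe. LDHA, lactate dehydrogenase, was at -1.04. None of the 4 lower genes with another probe had one that passed, whereas all 3 higher ones did. Of 25 respiratory chain genes 2 passed as higher and 6 as lower. NDUFS1, a core subunit of complex I, averaged -1.35 ± 0.02 and -0.03 on its other probe, and SDHD, the membrane anchor of complex II, averaged -1.05 ± 0.02, with -0.94, -0.67 and -0.30 on others.

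Of 25 bile acid and transport genes 4 were lower and 1, ABCC3, higher. SLC10A1, the hepatocyte uptake carrier for bile salts, averaged -1.22 ± 0.07, SLCO2B1 -1.12 ± 0.01 and SLC22A3, an organic cation transporter, -1.44 ± 0.07, with -0.14 on its other probe. In the IGF axis IGFBP3 (0.98 ± 0.12) and IGF2 (0.88 ± 0.01) were higher and IRS1 (-1.15 ± 0.11) and IGFBP4 (-1.04 ± 0.05) lower, of 13 tested. The other probes of IGFBP3 and IGF2 averaged 0.24 and -0.03. Of 18 hypoxia genes 1 was higher, NDRG1 (1.00 ± 0.05, with 0.07 on its other probe), and 3 lower, led by BNIP3L (-1.21 ± 0.02, with -0.15). The other NDRG1 probe was dim, at a mean log2 signal of 6.80.

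Set against 3MC, 555 genes (3.21%) had higher and 886 (5.13%) lower ratios with NP, out of 17286, and with median centring 253 were higher and 1825 lower. MMP3 was at 2.29 with NP and 0.11 ± 0.15 with 3MC (adjusted p = 2.7e-11), HMGA1 at 2.28 and 0.17 ± 0.04 (6.6e-13), IL11 at 2.25 and 0.20 ± 0.07 (2.4e-11), and PHLDA2 at 2.38 and 0.54 ± 0.03 (1.2e-10). In each dye MMP3 stood above background on at most 2 of the 3 arrays of 3MC. HEY1, a transcription factor downstream of Notch, was at 1.49 with NP and -0.38 ± 0.01 with 3MC. Several genes had opposite signs. SULF2, an extracellular sulfatase of heparan sulfate, had -1.42 ± 0.05 with NP and 2.04 ± 0.06 with 3MC, a difference of -3.45 (adjusted p = 2.8e-17). IGFBP7, a secreted IGF-binding protein, had -1.23 ± 0.04 with NP and 1.95 ± 0.06 with 3MC, and GASK1B -1.24 ± 0.05 and 1.11 ± 0.07.

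Set against DBA, 791 genes (4.58%) were higher and 1193 (6.9%) lower with NP, and with median centring 186 were higher and 3763 lower. MMP3, IL11 and HMGA1 were again among the 5 largest positive differences, with DBA ratios of 0.03, 0.31 and 0.40. In each dye MMP3 stood above background on at most 1 of the 3 DBA arrays, so its DBA ratio is that of a probe near background. The DBA arrays were also dimmer than the NP arrays, and the added offset makes the ratios of dim probes smaller. HSPA6 was at 1.84 with NP and -0.01 with DBA, where it did not stand above background on any array. HKDC1 was at 1.65 with NP and -0.15 ± 0.03 with DBA. SULF2 was at 1.60 ± 0.09 with DBA, IGFBP7 at 1.10 ± 0.05 and FAS at 1.17 ± 0.12, all lower than 0 with NP, with adjusted p of 3.6e-16, 1.3e-14 and 7.3e-14 for the differences. UBD, a ubiquitin-like modifier, was at -1.54 ± 0.11 with NP and 0.76 ± 0.09 with DBA.

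**Figure D5:**
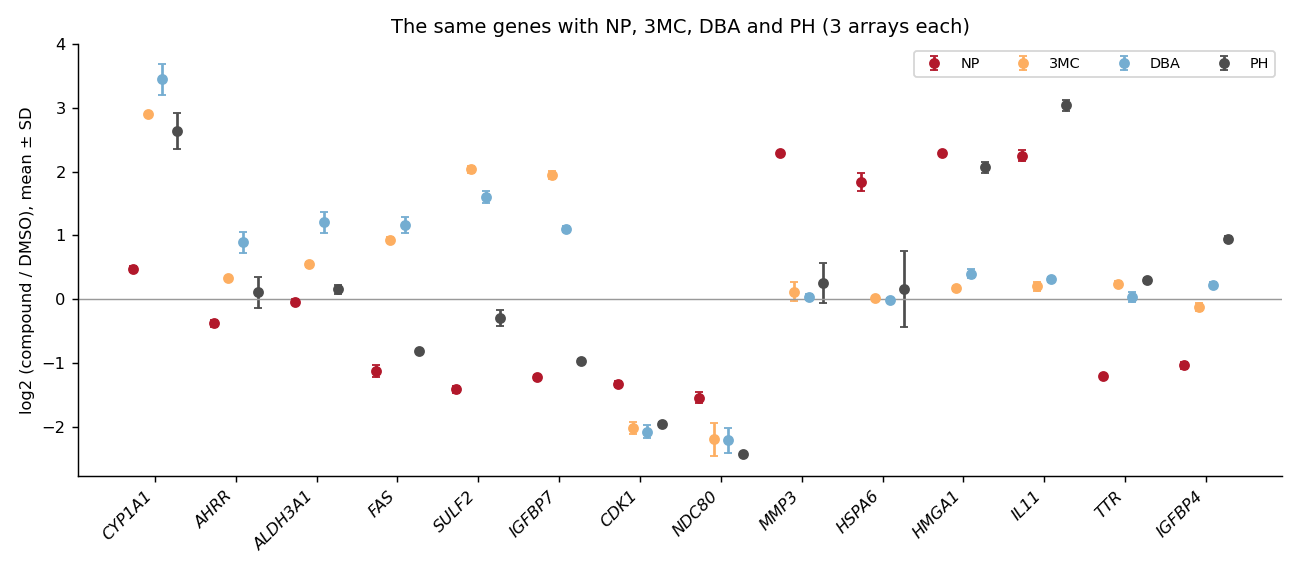
Mean log2 ratio to DMSO (± SD over 3 arrays) of 14 named genes with NP (red), 3MC (orange), DBA (blue) and PH (grey). CYP1A1 is low with NP and high with the other compounds, SULF2, IGFBP7 and FAS lie below 0 with NP and above 0 with 3MC and DBA, and MMP3 and HSPA6 stand apart from 0 with NP.

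Set against PH, which comes from arrays of the other file layout, 1410 genes (8.16%) were higher and 2641 (15.3%) lower with NP, and with median centring 1051 were higher and 3671 lower. The 5 largest positive differences came from genes that were lower with PH and near 0 with NP. KIF20A, a mitotic kinesin, was at -0.13 ± 0.02 with NP and -2.60 ± 0.10 with PH, and KIF4A, a chromosome-bound kinesin, at 0.00 ± 0.04 and -2.14 ± 0.10. MAGEE2 (0.08 and -2.36), IRAG2 (0.06 and -2.30) and the pseudogene RACGAP1P1 (0.05 and -2.24) followed. The 5 largest negative differences were CD46 (-3.89 with NP and -0.30 with PH), BTN2A1 (-2.62 and 0.38), CYP2S1 (0.32 and 3.29), ESF1 (-2.42 and 0.54) and ITM2B (-2.85 and 0.05). For CD46 and BTN2A1 the NP value is that of a probe whose gene has other probes near 0. CYP2S1, an extrahepatic P450, was high with PH and did not pass with NP.

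IL11 was lower with NP (2.25) than with PH (3.04 ± 0.09), a difference of -0.79 (adjusted p = 3.2e-06). GPAT3 was at 1.44 with NP and 1.43 ± 0.02 with PH, and SRXN1 at 1.81 and 1.90 ± 0.14, differences that did not pass (adjusted p = 0.98 and 0.31). MMP3 (0.25 ± 0.31 with PH) and HSPA6 (0.16 ± 0.60) were higher with NP than with PH too, with differences of 2.04 and 1.68, and the PH arrays of both varied widely.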

How the data were processed

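The members, gene lists and tests were chosen with earlier results of these data known. As deposited, the GenePix scanner files hold each spot's intensity and local background in both dyes, neither normalised nor corrected, and the percent of saturated pixels, per the file headers. Log2 ratios deposited by the authors came besides, whose normalisation is not given in the sources used here. Of the NP columns, those of arrays 2 and 3 could be tied to spots and served as an alternative, and their centring is near 0. A further 3 columns of per-sample values were not used. Values were computed with R 4.3.3 and limma 3.58.1: normexp at an offset of 50, loess within arrays with control spots at weight 0, spots flagged -75 or below left out, and spots of a probe averaged. Probes were named by accession or symbol (26360 of 41000). A gene was represented by its brightest probe and entered the test when its signal exceeded the local background by 2 SDs of it in either dye on 2 of 3 arrays of any compound. The fit held 21 arrays of 7 compounds, and BA, whose array 1 stood apart, was left out. P-values were adjusted by Benjamini and Hochberg over genes. Named genes are the 15 highest and 15 lowest that passed, the metabolism and AHR lists, up to 4 members per other list (2 where none passed), and 5 each way per contrast; further list members named are given with their values. Some genes that qualify are not reported here, in text or figures. On simulated log ratios of 17247 genes, 100% of 2-fold changes were recovered. The simulated noise was drawn from the spread between arrays and held no dye bias or differences between probes. Recovery in the presence of these was not tested. The number of arrays limits the precision.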

Additional observations from a re-analysis of the deposited data

Results flagged for a closer look

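The differences between NP and a comparison compound that follow were tested in the same limma fit, and each passed. They are differences of log2 ratios, NP minus the other compound. Against 3MC they were 2.18 for MMP3, 2.12 for HMGA1, 2.05 for IL11, 1.86 for HEY1, 1.84 for PHLDA2, -3.45 for SULF2, -3.17 for IGFBP7, -2.42 for CYP1A1, -2.42 for DEPP1 and -2.35 for GASK1B. Against DBA they were 2.26 for MMP3, 1.94 for IL11, 1.88 for HMGA1, 1.85 for HSPA6, 1.79 for HKDC1, -3.02 for SULF2, -2.97 for CYP1A1, -2.32 for IGFBP7, -2.30 for UBD and -2.30 for FAS. The probes of MMP3 and HSPA6 were near background on the DBA arrays, which were dimmer than the NP arrays.

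Against PH they were 2.47 for KIF20A, 2.44 for MAGEE2, 2.36 for IRAG2, 2.30 for RACGAP1P1, 2.14 for KIF4A, -3.59 for CD46, -3.00 for BTN2A1, -2.97 for CYP2S1, -2.96 for ESF1 and -2.89 for ITM2B. The NP and PH arrays differ in file layout and brightness, and the part of these in the differences from PH cannot be told apart from the compound. The other probes of DEPP1, HMGA1 and BTN2A1 had NP log2 ratios of -0.21, 0.20 and 0.04, and those of CD46 0.13 and -0.04. Those of DEPP1, HMGA1 and BTN2A1 were dimmer than the probes used, with mean log2 signals of 7.46, 6.46 and 7.02.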

How the results depend on the processing

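The number of genes that passed with NP stayed between 2527 (the mean of a gene's probes) and 4588 (plain background subtraction) under the other settings tried at the same threshold. It was 11193 without a minimum fold and 1092 at 2-fold. Without a minimum fold, the differences from 3MC, DBA and PH numbered 6931, 8261 and 11448, and at 2-fold 253, 517 and 1336. The count for NP minus DBA also moved to 3130 with plain background subtraction and to 3949 with median centring, where the median of all such differences was -0.16 and that for NP minus PH -0.12. Leaving out each NP array in turn gave 3323 to 3399 genes against DMSO, 1451 to 1455 against 3MC, 1990 to 2033 against DBA and 4048 to 4064 against PH. The fit of NP, 3MC and DBA arrays alone, which share a file layout, gave 3368 genes. With the array number as a replicate block 3352 genes passed, as without it, and residuals of arrays of the same number correlated at -0.03 to 0.13 across compounds, so the numbers were not taken as pairs. The authors' deposited values of 2 arrays gave 3895 of 12953 genes. Testing each probe on its own, added after seeing the data, gave 3351 genes by the probe used.

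Of 176 named genes, 19 lost their call with the mean of a gene's probes, 10 with median centring, 5 with the authors' values and 3 when spots marked not found were left out. MCM10 reversed to 0.21 with plain background subtraction and to 0.13 with all 24 arrays of the platform, and IGFBP3 fell short with NP arrays alone (0.24). In the fits of 24 arrays and of NP alone another probe of MCM10 and IGFBP3 was the brightest. Of 30 gene lists, 14 had a count of higher or lower genes that moved by over 1.5 times with median centring, 12 with plain background subtraction, 11 with the authors' values and 10 with the mean of a gene's probes. With median centring 4 list medians changed sign, naphthalene metabolism (-0.03), histones (-0.09), the respiratory chain and inflammation (-0.05 each). Plain background subtraction changed the sign for p53 targets (0.03) and liver transcription factors (0.09). The authors' values changed it for p53 targets (0.06) and the IGF axis (-0.12), and the mean of a gene's probes for fatty acid synthesis (0.11). The split of genes by the mean signal of both channels was chosen after seeing the data. Dim probes are limited by the offset and by the number of arrays.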
